A study of Mus musculus with 28 samples.

Results

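The comparison asked whether the transcriptional effect of 5xFAD in mouse hippocampus differed between animals with normal RIPK1 and animals with kinase-dead RIPK1. All 12 libraries of 1 cohort entered, out of 28 samples in the series: WT, 5xFAD, Ripk1 D138N (homozygous, written Ripk1D138N/D138N in the labels) and Ripk1 D138N with 5xFAD, 3 libraries each. Every animal was 9 months old and was taken after behavioural tests, and polyadenylated RNA was sequenced. 5xFAD mice carry mutant human APP and presenilin transgenes expressed in neurons from Thy1 regulatory sequence, on top of the intact mouse genes, and the D138N allele is present in every cell of the animal. The WT animals of the cohort descend from the same ancestors as the mutants. The interaction was (D138N 5xFAD minus D138N) minus (5xFAD minus WT) on the log2 scale, from 1 edgeR fit with a mean per genotype over all 21376 genes with enough counts. A value below 0 means that 5xFAD raised a gene less, or lowered it more, on the D138N background than on the WT background. Calls required an adjusted p (Benjamini-Hochberg, over all 21376 genes) under 0.05.

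RIPK1 is a kinase downstream of death receptors, Toll-like receptors and the nucleic acid sensor ZBP1, and its kinase activity drives necroptosis and some forms of inflammatory signalling. The D138N substitution in the catalytic domain removes that activity and leaves the protein's scaffold role. Type I interferons act through IFNAR1 and IFNAR2, the kinases JAK1 and TYK2 and factors that include STAT2 and IRF9, which bind the interferon-stimulated response element (ISRE) in promoters of antiviral genes. In brains with amyloid plaques, microglia around plaques take on a disease-associated state led by Trem2-dependent genes, and interferon-stimulated genes are expressed by a further set of microglia and other cells.

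Library size ran from 16624325 counts (5xFAD 1) to 44801371, and the next lowest total was 27067378. 5xFAD 1 also stood apart by immediate early genes, which are given with that list. Within its genotype, D138N 5xFAD 2 lay nearest to the 5xFAD libraries for Thy1, C1qa, Slc17a6 and Reln, and also for Irgm1, Isg15 and Ifit1 among the interferon genes, while for Irf7 D138N 5xFAD 1 did. Values per gene are CPM, the counts scaled to a common library size. Ttr, made by the choroid plexus, lay between 22.2 CPM in 5xFAD 3 and 4252 CPM in D138N 2, with wide spread inside each genotype. Whether the 3 libraries of each genotype were separate animals is not given in the labels, and a p-value here reflects only how these libraries spread. Since these are bulk samples, fewer cells of a type and less RNA per cell cannot be told apart.

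The promoters of the genes that led the interaction are shown first, because several of them hold the core of the ISRE, the element through which interferon acts on promoters. The 250 bases before the transcription start, from RefSeq on GRCm38.p6, are printed 5′ to 3′ on the strand of the gene, in lower case, with each match on either strand to the ISRE-type core (GAAA, any 2 bases, GAAA) in capitals. Overlapping matches run together. Irgm1, Isg15 and Oasl2 had the smallest interaction p-values, Ifit1 and H2-T23 stand for the Ifit family and class I antigen presentation, and Cst7 stands for disease-associated microglia.
Irgm1: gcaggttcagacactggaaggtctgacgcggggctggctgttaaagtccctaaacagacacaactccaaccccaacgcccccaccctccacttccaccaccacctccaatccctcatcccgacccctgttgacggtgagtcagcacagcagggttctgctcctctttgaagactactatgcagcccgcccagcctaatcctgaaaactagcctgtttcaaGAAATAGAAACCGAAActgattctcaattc
Isg15: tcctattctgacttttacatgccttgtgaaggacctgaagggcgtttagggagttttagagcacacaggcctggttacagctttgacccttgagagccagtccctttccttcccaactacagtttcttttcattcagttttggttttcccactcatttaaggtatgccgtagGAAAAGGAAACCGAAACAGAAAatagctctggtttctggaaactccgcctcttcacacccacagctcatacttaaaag
Ifit1: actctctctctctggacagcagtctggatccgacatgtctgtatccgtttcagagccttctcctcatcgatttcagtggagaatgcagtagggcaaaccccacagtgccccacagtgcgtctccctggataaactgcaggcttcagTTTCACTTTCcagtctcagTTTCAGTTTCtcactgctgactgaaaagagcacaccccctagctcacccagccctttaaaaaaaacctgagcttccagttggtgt
H2-T23: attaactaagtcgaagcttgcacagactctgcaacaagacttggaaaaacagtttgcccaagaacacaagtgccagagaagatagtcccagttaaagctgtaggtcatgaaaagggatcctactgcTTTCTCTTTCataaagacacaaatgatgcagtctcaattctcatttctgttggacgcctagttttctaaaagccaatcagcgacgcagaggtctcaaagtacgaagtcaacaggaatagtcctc
Oasl2: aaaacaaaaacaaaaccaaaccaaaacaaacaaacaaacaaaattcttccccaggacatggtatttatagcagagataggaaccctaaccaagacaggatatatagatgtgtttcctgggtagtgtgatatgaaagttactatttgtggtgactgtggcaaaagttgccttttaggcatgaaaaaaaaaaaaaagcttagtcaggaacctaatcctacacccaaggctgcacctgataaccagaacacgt
Cst7: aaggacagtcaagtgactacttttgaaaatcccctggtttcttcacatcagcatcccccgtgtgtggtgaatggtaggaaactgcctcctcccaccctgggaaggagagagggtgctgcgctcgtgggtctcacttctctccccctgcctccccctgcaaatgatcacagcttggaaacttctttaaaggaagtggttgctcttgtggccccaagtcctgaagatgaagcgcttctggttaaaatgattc
These windows lie at chr11:48871421-48871670 (Irgm1, minus strand), chr4:156200819-156201068 (Isg15, minus strand), chr19:34640639-34640888 (Ifit1, plus strand), chr17:36032702-36032951 (H2-T23, minus strand), chr5:114896684-114896933 (Oasl2, plus strand) and chr2:150570165-150570414 (Cst7, plus strand). Irgm1 held 2 overlapping matches whose first bases lay 30 and 24 bases before the start. In Isg15 there were 3 overlapping matches, the first of them 78 bases before the start. Ifit1 had 2 matches on the other strand, beginning 104 and 85 bases before the start, and H2-T23 had 1, beginning 124 bases before. No match was found in these windows of Oasl2 and Cst7, which says only that those letters are not there.

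Irgm1, an immunity-related GTPase induced by interferon, was the only gene called for the interaction in this fit. It was at 9.55, 7.86 and 8.76 CPM in WT 1 to 3, 48.9, 42.3 and 48.5 in 5xFAD, 8.81, 11.8 and 8.42 in D138N, and 17.0, 20.5 and 17.0 in D138N 5xFAD. The 5xFAD libraries lay above all others, and the D138N 5xFAD libraries lay between them and both groups without 5xFAD, with no overlap. The 5xFAD effect was 2.42 ± 0.13 (log2, SE) on the WT background (edgeR, adjusted p = 5.54e-08) and 0.90 ± 0.14 on the D138N background (edgeR, adjusted p = 0.0013). Their difference, the interaction, was -1.52 ± 0.19 with a 95% interval of -1.93 to -1.10 (edgeR, adjusted p = 0.0385), so the linear fold on the D138N background was 0.35 times that on the WT background (0.263 to 0.465). Leaving out 1 library at a time gave -1.61 to -1.35, and the call held without 5xFAD 2 or D138N 5xFAD 2 and was lost without each of the other 10 in turn (adjusted p 0.0542 to 0.206). Counts of the gene ran from 254 to 1556 per library.

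Across all genes, 1 of 21376 (0.00468%) was called, lower, and 0 (0%) higher, while 1685 genes (7.88%) had an unadjusted p under 0.05, 790 of them lower (3.7%) and 895 higher (4.19%). DESeq2 on the same counts called 83 genes, 62 lower and 21 higher. Of the 62 lower ones, 47 belonged to the lists of interferon genes and class I antigen presentation, which together had 108 tested members. The median interaction over all genes was -0.00638 on the log2 scale, and 10865 estimates (50.8%) lay below 0. Ranked by p, 9 of the first 10 genes and 27 of the first 50 belonged to the same lists.

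Each side of the interaction differed in how many genes it called. 5xFAD against WT called 3540 genes (16.6%), 1828 higher (8.55%) and 1712 lower (8.01%). D138N 5xFAD against D138N called 750 (3.51%), of which 685 (3.2%) were higher and 65 (0.304%) lower. A count past a threshold on each side is not a test of the difference, which is the interaction itself. The 5xFAD count on the WT background was 1712 without 5xFAD 2 and 1975 without WT 1, and the count on the D138N background was 433 without D138N 3. Without 5xFAD, D138N against WT called 0 genes (0%) in edgeR and in DESeq2, with 597 (2.79%) at an unadjusted p under 0.05. Within 5xFAD, D138N against no mutation called 120 genes (0.561%), 7 higher (0.0327%) and 113 lower (0.529%). That count was 895 without D138N 5xFAD 2, 71 without D138N 5xFAD 1 and 66 without D138N 5xFAD 3.

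For most interferon-stimulated genes the fitted 5xFAD effect was smaller on the D138N background, although only Irgm1 among them was called. In 4 lists of them (ISG15 conjugation and the Ifit family, oligoadenylate synthetases, interferon GTPases, and other antiviral effectors), 69 of 70 members were tested, Ifi44l having too few counts. The interaction was below 0 for 68 of 69, the median was -1.56 beside -0.00638 over all genes, and 59 of 69 had an unadjusted p under 0.05 on the lower side, against a background of 3.7%. None of the 69 had one on the higher side (background 4.19%). On the WT background 5xFAD raised 65 of 69 (background 8.55%), with a median effect of 2.74. On the D138N background it raised 19 of 69 (background 3.2%), with a median effect of 0.96. Within 5xFAD, 56 of 69 were called lower with D138N (background 0.529%), and for 65 of 69 every 5xFAD library lay above every D138N 5xFAD library, which held for 7.73% of all genes. Without 5xFAD the median D138N effect on the 69 genes was 0.03, and 1 of them had an unadjusted p under 0.05 (background 2.79%).

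**Figure D1:**
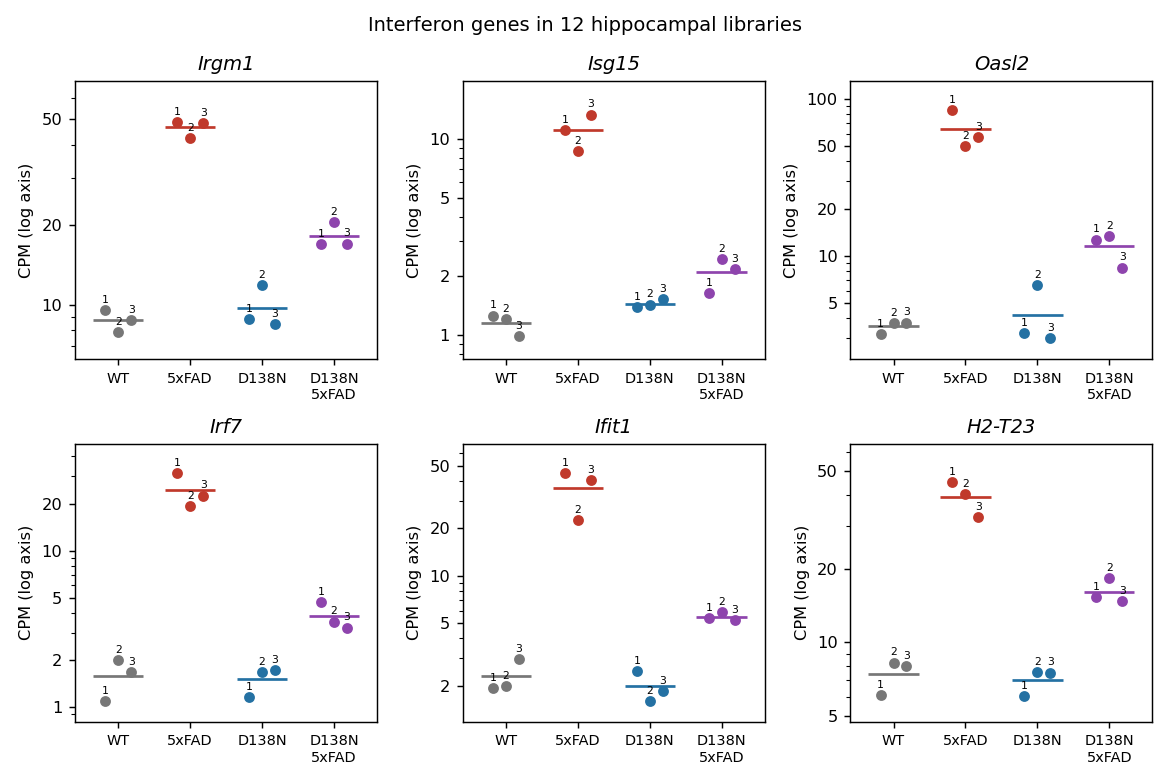
CPM on a log axis (y) by genotype (x) for 6 interferon-inducible genes. Points are single libraries numbered by replicate and bars are group means. Irgm1 sat between 42.3 and 48.9 CPM in 5xFAD and between 17.0 and 20.5 in D138N 5xFAD, and in each panel the 3 D138N 5xFAD libraries lay below the 3 5xFAD libraries.

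ISG15 is a ubiquitin-like protein that is attached to other proteins during the interferon response, and the IFIT proteins bind viral RNA. Isg15 was at 1.26, 1.20 and 0.992 CPM in WT, 11.1, 8.67 and 13.2 in 5xFAD, 1.39, 1.43 and 1.52 in D138N, and 1.64, 2.45 and 2.17 in D138N 5xFAD. Only the 5xFAD libraries were high, and the highest D138N 5xFAD library was still less than the lowest 5xFAD library. The 5xFAD effect was 3.25 on the WT background (edgeR, adjusted p = 3.33e-07) and 0.50 on the D138N background (edgeR, adjusted p = 0.455). Its interaction was -2.75 ± 0.38, just outside the threshold (edgeR, adjusted p = 0.0608). Isg15 passed in DESeq2 and without 5xFAD 2 (adjusted p = 0.00904) or without D138N 5xFAD 2 (0.0296). Isg15 also passed in edgeR with no filter on low counts (adjusted p = 0.00241), the robust fit (0.0297) and the legacy fit (0.012). Counts behind it were 36 to 50 in WT libraries and 72 to 99 in D138N 5xFAD libraries.

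For Ifit1, values were 1.93, 2 and 2.95 CPM in WT, 45.0, 22.7 and 40.6 in 5xFAD, 2.48, 1.61 and 1.86 in D138N, and 5.36, 5.90 and 5.23 in D138N 5xFAD. The 3 D138N 5xFAD libraries were close together and lay above both groups without 5xFAD and below all 5xFAD libraries. 5xFAD raised Ifit1 on both backgrounds, by 3.97 (edgeR, adjusted p = 2.18e-07) and 1.46 (edgeR, adjusted p = 0.0212), and the interaction was -2.51 (edgeR, adjusted p = 0.202). Ifit3, whose reads could be shared with its near copy Ifit3b, had an interaction of -2.27 (edgeR, adjusted p = 0.245). Uba7, the enzyme that activates ISG15, had -1.05 (edgeR, adjusted p = 0.41). In this list of 9 genes, 8 had an unadjusted p under 0.05 on the lower side (background 3.7%). The median interaction was -1.77, with median 5xFAD effects of 3.15 (WT background) and 1.18 (D138N background).

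The oligoadenylate synthetases make the messenger that activates RNase L. Oasl2, an interferon-induced member with ubiquitin-like domains, was at 3.16, 3.73 and 3.75 CPM in WT, 84.6, 49.9 and 57.4 in 5xFAD, 3.21, 6.46 and 2.98 in D138N, and 12.7, 13.4 and 8.39 in D138N 5xFAD. Groups with and without 5xFAD did not overlap on either background, and the step was smaller with D138N. 5xFAD raised it by 4.15 on the WT background (edgeR, adjusted p = 2.18e-07) and by 1.44 on the D138N background (edgeR, adjusted p = 0.0126). The interaction was -2.72 ± 0.42 (edgeR, adjusted p = 0.108). Of 8 members, 5 had an unadjusted p under 0.05, all lower (background 3.7%), and the median interaction was -2.52. Oas2 had -2.43, Oas1b -2.28 and Oas3 -2.60, none of them called. The Oas1 genes are near copies whose reads could have been split, and Oas3 had only 2 to 10 counts in WT libraries.

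Immunity-related GTPases and guanylate-binding proteins act on vacuoles of intracellular pathogens. Of 17 interferon-inducible GTPases tested, 15 had an unadjusted p under 0.05 (background 3.7% lower). All 17 estimates lay below 0, with a median of -1.56. Igtp was at 12.7 to 21.2 CPM in 5xFAD libraries and 3.67 to 5.62 in D138N 5xFAD libraries, for an interaction of -1.81 (edgeR, adjusted p = 0.3). The guanylate-binding proteins Gbp3 and Gbp5 had -1.57 and -1.43, and Gbp2 had -1.36. 5xFAD raised Gbp2 on both backgrounds, from 2.09, 3.35 and 2.67 CPM in WT to 24.8, 15.9 and 21.8 in 5xFAD, and from 2.25, 3.32 and 2.29 in D138N to 6.14, 9.16 and 7.99 in D138N 5xFAD. The most negative estimate of the list, Mx1 at -4.40, rests on few reads in WT (0.134 to 0.22 CPM). Gbp genes and the pair Tgtp1 and Tgtp2 have near copies, so single values among them are uncertain.

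Among 35 other antiviral effectors, 31 had an unadjusted p under 0.05 (background 3.7% lower) and the median interaction was -1.43. Slfn5, a Schlafen family gene induced by interferon, was at 22.9, 22.8 and 35.8 CPM in 5xFAD and 12.3, 10 and 12.4 in D138N 5xFAD, next to 8.10, 7.66 and 8.79 in WT and 8.34, 12.4 and 8.09 in D138N. The D138N and D138N 5xFAD libraries overlapped, and 5xFAD raised Slfn5 on the WT background (1.75; edgeR, adjusted p = 3.83e-05) while its effect on the D138N background was 0.28 (edgeR, adjusted p = 0.593). Eif2ak2, which encodes the RNA-activated kinase PKR, had an interaction of -1.14, Samd9l -1.43 and Xaf1 -0.95 (edgeR, adjusted p 0.276 to 0.311). The best expressed member, Znfx1, a helicase, had an estimate of -0.14 with a 95% interval of -0.46 to 0.18, and its sign changed without 5xFAD 3 (0.016).

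Genes of interferon signalling ranged from receptors to transcription factors. Among examples picked after their values were seen, the receptor chain Ifnar1 had 0.06 and the kinases Jak1 and Tyk2 had 0.10 and -0.01. Irf9, the DNA-binding partner of STAT2, was at 12.7, 12 and 13.9 CPM in WT, 51.0, 38.5 and 32.9 in 5xFAD, 15.3, 13.8 and 14.1 in D138N, and 19.5, 21.6 and 19.9 in D138N 5xFAD. Each D138N 5xFAD library was above every library without 5xFAD and below every 5xFAD library. Its 5xFAD effect was 1.65 on the WT background (edgeR, adjusted p = 2.43e-06) and 0.49 on the D138N background (edgeR, adjusted p = 0.0832), and the interaction was -1.16 ± 0.20 (edgeR, adjusted p = 0.134).

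Stat2 went from 40.1, 33.3 and 37.9 CPM in WT to 83.5, 74.8 and 90.5 in 5xFAD, and was at 34.5, 39.0 and 36.8 in D138N and 42.9, 50 and 44.2 in D138N 5xFAD. The interaction for Stat2 was -0.85 ± 0.14 (edgeR, adjusted p = 0.113). Irf7, the factor that amplifies interferon production, was at 31.4, 19.2 and 22.4 CPM in 5xFAD and 4.68, 3.52 and 3.23 in D138N 5xFAD, beside 1.10 to 2 in the 6 libraries without 5xFAD. Its interaction was -2.56 (edgeR, adjusted p = 0.135), while 5xFAD raised it on both backgrounds (3.89 and 1.33). In all, 9 of 19 members of the signalling list had an unadjusted p under 0.05, each lower (background 3.7%), and the median was -0.32.

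Class I antigen presentation, which interferon also induces, had estimates on the same side. Of 20 genes, 15 had an unadjusted p under 0.05 on the lower side (background 3.7%). All 20 estimates lay below 0 and the median was -1.05, with median 5xFAD effects of 2.31 (WT background) and 0.98 (D138N background). H2-T23, which encodes the non-classical molecule Qa-1, was at 6.09, 8.26 and 7.99 CPM in WT, 45.0, 40.4 and 32.4 in 5xFAD, 6.03, 7.55 and 7.52 in D138N, and 15.3, 18.3 and 14.7 in D138N 5xFAD. The groups did not overlap where they differed by 5xFAD, and the interaction was -1.20 ± 0.23 (edgeR, adjusted p = 0.245). The peptide transporter Tap1 had -1.53, H2-T22 -0.71 and the proteasome activator Psme1 -0.65. B2m, the light chain shared by class I molecules, was at 404, 393 and 250 CPM in 5xFAD and 124, 217 and 158 in D138N 5xFAD, and its interaction was -1.05 (edgeR, adjusted p = 0.444). Reads of H2 genes can be shared between near copies.

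Class II genes present peptides to helper T cells. Cd74, the invariant chain, was at 78.6, 224 and 65.5 CPM in 5xFAD and 15.6, 51.3 and 40.0 in D138N 5xFAD, against 1.61 to 6.65 in WT and 1.49 to 7.72 in D138N. Its estimate was -1.97 with a 95% interval of -4.07 to 0.13. In this list 1 of 8 genes, the co-stimulatory molecule Cd86 (-0.80), had an unadjusted p under 0.05 (background 3.7% lower). Among 14 chemokines and cytokines, 4 did, each lower (background 3.7%), and the list median was -1.05. They were Cxcl10 (-3.53), Ccl12 (-2.94), Ccl5 (-2.86) and Cxcl16 (-1.10). Cxcl10, which attracts T cells and is itself induced by interferon, was at 17.2, 7.32 and 20.1 CPM in 5xFAD and 3.43, 3.69 and 2.31 in D138N 5xFAD, and all 6 libraries without 5xFAD were at 0.663 or less.

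**Figure D2:**
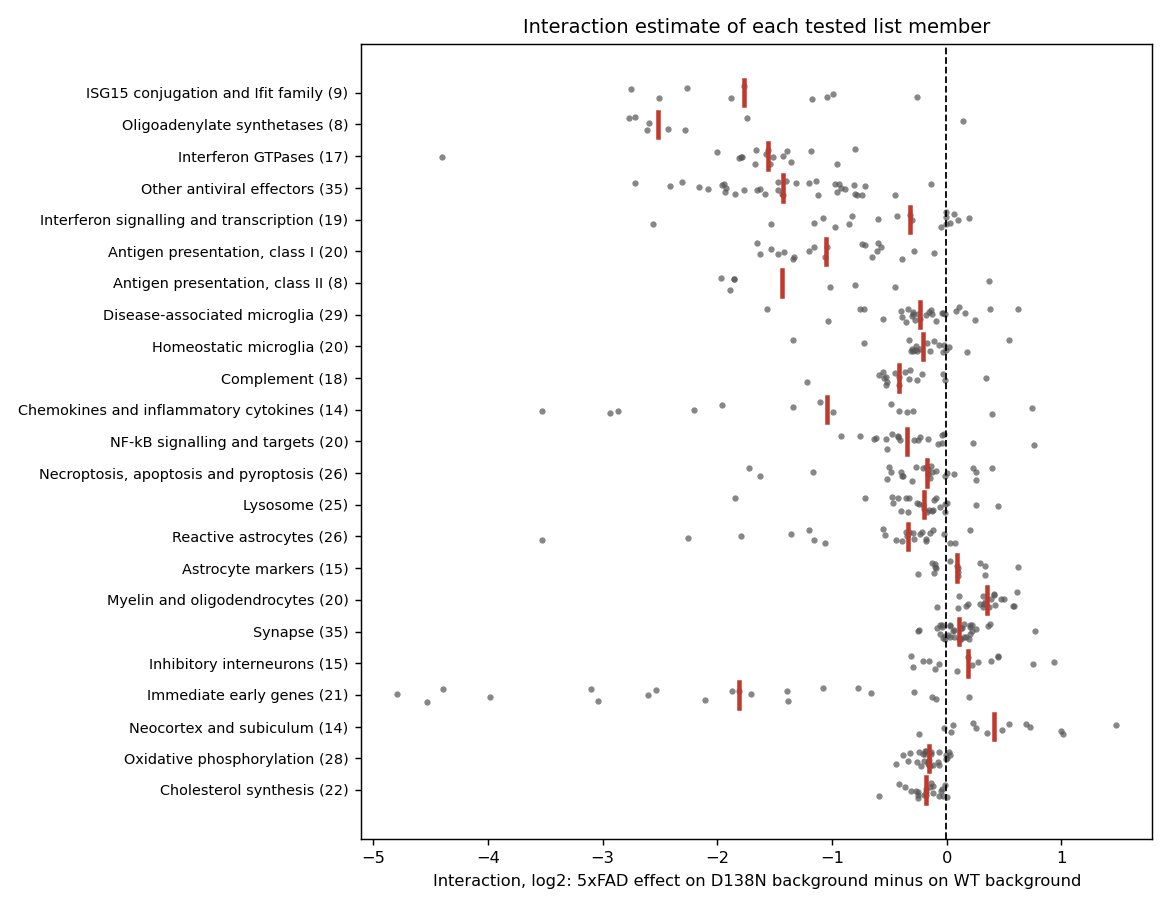
Interaction estimate on the log2 scale (x) of every tested member (points) of 23 gene lists (y, number of tested members in parentheses). Red bars are list medians and the dashed line is the median of all 21376 genes. The interferon and class I lists lie to the left, with medians from -2.52 to -0.32, as do immediate early genes (-1.81), class II (-1.43) and chemokines (-1.05), and the disease-associated microglia list has its median at -0.23.

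Disease-associated microglia genes were raised by 5xFAD on both backgrounds, 27 of 29 on the WT background and 25 of 29 on the D138N background (backgrounds 8.55% and 3.2%). Their median 5xFAD effects were 2.18 and 1.70, and the median interaction was -0.23. The estimate lay below 0 for 23 of 29, beside 50.8% of all genes. A single member had an unadjusted p under 0.05 (background 3.7% lower), Ch25h (-1.57, 95% interval -2.96 to -0.18). Ch25h makes the oxysterol 25-hydroxycholesterol and is itself inducible by interferon. Without D138N 5xFAD 2 the number was 8, and without both that library and 5xFAD 1 it was 11, with a median of -0.46, so D138N 5xFAD 2 moves this list. The number was also 5 without 5xFAD 1, 4 without WT 2 or D138N 3, 3 without D138N 1, 2 without 5xFAD 3, and 0 without WT 1, WT 3 or D138N 2.

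Intervals show what the libraries can tell about single microglial genes. Cst7 and Trem2 were picked after their values were seen, as leading genes of the plaque-associated state. Cst7, a cystatin, was at 46.6, 63.9 and 71.0 CPM in 5xFAD and 50, 60.2 and 45.7 in D138N 5xFAD, with no library above 0.241 in the other groups. The groups overlapped, and the interaction was 0.38 with a 95% interval of -1.62 to 2.37, wide because of the few reads without 5xFAD. Trem2, the lipid-sensing receptor of microglia, was at 91.8, 112 and 113 CPM in 5xFAD and 79.8, 114 and 76.8 in D138N 5xFAD. Its interaction was -0.23 (-0.74 to 0.27), so an effect as large as that of Irgm1 lies outside the interval for Trem2. Ctsd and Ctsl, lysosomal proteases of the same list, had -0.36 (-0.77 to 0.05) and -0.39 (-0.78 to 0.01).

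Homeostatic microglia genes, which also track the number of microglia, had a median interaction of -0.20. The estimate lay below 0 for 17 of 20, beside 50.8% of all genes. At an unadjusted p under 0.05, 2 of 20 were lower (background 3.7%) and 1 higher (background 4.19%). Aif1, which encodes the microglial protein IBA1, was at 12.4, 12.5 and 10.2 CPM in 5xFAD and 7.66, 9.70 and 7.01 in D138N 5xFAD (interaction -0.72; edgeR, adjusted p = 0.617). As a mean of log2 CPM minus the WT mean, this list stood at 1.25, 1.25 and 1.20 in 5xFAD and 0.96, 1.03 and 0.91 in D138N 5xFAD. On the same scale the 4 interferon lists stood at 2.60, 2.21 and 2.80 against 1.10, 1.04 and 0.94, and disease-associated microglia at 2.26, 2.57 and 2.52 against 2.18, 2.40 and 2.16. The homeostatic and the interferon scores were both lower in every D138N 5xFAD library than in every 5xFAD library, and the part of the first in the second was not tested.

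**Figure D3:**
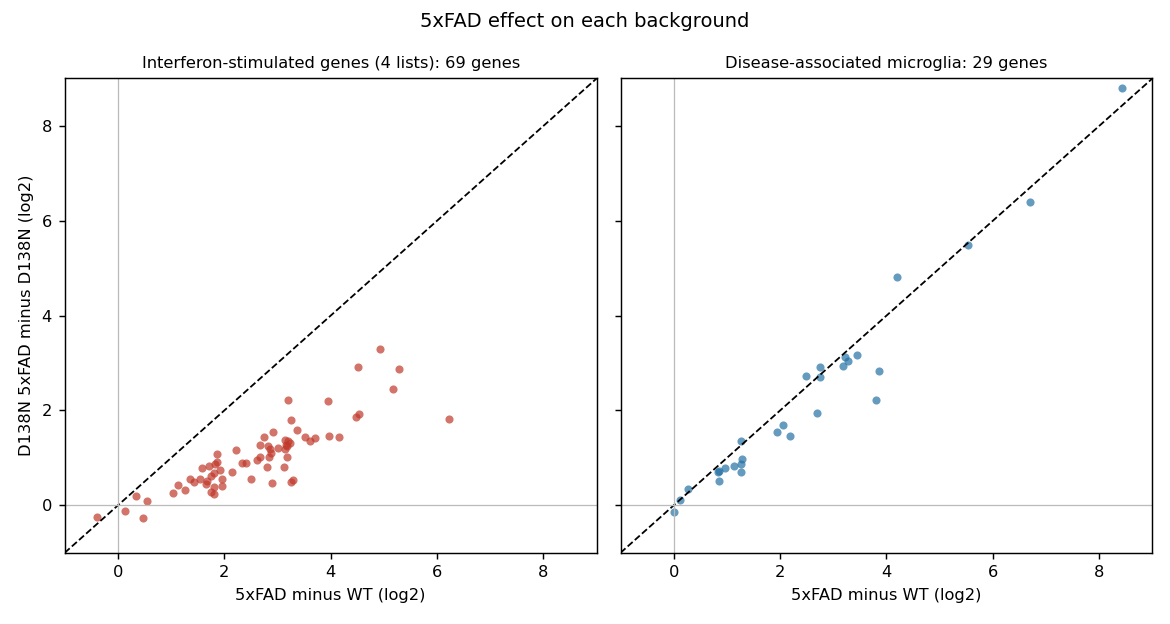
The 5xFAD effect on the WT background (x) against that on the D138N background (y), both log2, for 69 interferon-stimulated genes (left) and 29 disease-associated microglia genes (right). Each point is a gene and the dashed line marks equal effects. The median effects are 2.74 and 0.96 on the left and 2.18 and 1.70 on the right.

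Genes that respond to 5xFAD were also chosen in libraries outside the fit. The other cohort of the series, with its own WT and 5xFAD libraries, called 672 genes (3.16% of those tested) higher and 34 (0.16%) lower in 5xFAD, 706 (3.32%) in all, and 671 of the 672 were tested here. Of these, 126 had an unadjusted p under 0.05 on the lower side of the interaction (background 3.7%) and 8 on the higher side (background 4.19%), with a median of -0.24. The 72 that were in an interferon or class I list had 60 lower and 0 higher, with a median of -1.43 and median 5xFAD effects of 2.60 (WT background) and 1.18 (D138N background). The other 599 had 66 lower and 8 higher, with a median of -0.18 and median effects of 1.34 and 1.05. Among the 599, 5xFAD raised 504 on the WT background and 420 on the D138N background. Among the 72 it raised 71 and 32. Over all genes tested the shares raised were 8.55% and 3.2%.

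Complement, lysosomal and reactive astrocyte genes had smaller shifts. C1qa, a subunit of the first complement component, was at 240, 249 and 210 CPM in 5xFAD and 121, 201 and 129 in D138N 5xFAD, with D138N 5xFAD 2 nearest to 5xFAD, and its interaction was -0.55 (edgeR, adjusted p = 0.617). Of 18 complement genes, 6 had an unadjusted p under 0.05, all lower (background 3.7%), and the median was -0.41. Of 25 lysosomal genes, 6 were lower and 1 higher at that level (backgrounds 3.7% and 4.19%). Their median was -0.20, and the protease Ctsh led the lower ones (-0.72). Of 26 reactive astrocyte genes, 8 were lower (median -0.34), and 6 of these 8 also belong to the interferon, class I or chemokine lists (Cxcl10, Gbp2, H2-D1, H2-T23, Iigp1 and Psmb8). The 19 astrocyte genes outside those lists had a median of -0.28 and 2 lower, Serpina3n and Vim. The background for both astrocyte counts was 3.7%. Gfap, the intermediate filament of reactive astrocytes, was at 2332, 2392 and 2304 CPM in 5xFAD and 1645, 2406 and 1798 in D138N 5xFAD, and 5xFAD raised it on both backgrounds (2.69 and 2.40).

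Genes of the cell death machinery and of NF-kB act around RIPK1. Of 26 genes of necroptosis, apoptosis and pyroptosis, 1 had an unadjusted p under 0.05, Tnfrsf1a, the receptor of TNF upstream of RIPK1 (-0.51; background 3.7% lower), and the median was -0.18. Ripk1 itself had -0.02 with a 95% interval of -0.41 to 0.37, and a point mutation need not alter its RNA. Its sign changed without WT 3, 5xFAD 1 or D138N 2. Zbp1, whose product recruits RIPK1 and RIPK3 and which is interferon-inducible, had -1.63 (-4.21 to 0.95) on 2 to 10 counts per library without 5xFAD. Its counts, not scaled to library size, were 106 to 238 in 5xFAD libraries and 33 to 53 in D138N 5xFAD libraries. Mlkl, the executioner of necroptosis, had -1.73 (-3.48 to 0.02) and Ripk3 -0.52 (-2.17 to 1.14), both at under 50 counts in every library. Of 20 NF-kB genes, 4 were lower at an unadjusted p under 0.05 (Icam1, Tlr2, Relb and Traf2; background 3.7%). The estimate lay below 0 for 18 of 20, with a median of -0.35.

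Among the genes with a positive interaction, those with the smallest p-values were lowered by 5xFAD on the WT background and not called on the D138N background. Scn4b, a sodium channel beta subunit, was at 24.9, 27.5 and 26.4 CPM in WT, 14.7, 14.4 and 15.6 in 5xFAD, 21.4, 20.6 and 23.8 in D138N, and 21.7, 21.1 and 26.7 in D138N 5xFAD. Only the 5xFAD libraries were low, and the D138N groups overlapped. The 5xFAD effect was -0.81 on the WT background (edgeR, adjusted p = 0.000214) and 0.08 on the D138N background (edgeR, adjusted p = 0.786), and the interaction was 0.90 ± 0.15 (edgeR, adjusted p = 0.134).

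The protocadherins Pcdhga2 and Pcdha3, cell adhesion molecules from clustered genes with shared exons, had 1.11 and 1.27, Samd5 had 0.62 and Cbs, cystathionine beta-synthase, had 0.57. Part of each estimate comes from the groups without 5xFAD, where the D138N effect was -0.26 for Scn4b, -0.40 for Pcdhga2, -0.46 for Pcdha3, -0.16 for Samd5 and -0.28 for Cbs, none of them called. Cbs was at 36.8, 40.7 and 39.3 CPM in WT and 29.8, 31.9 and 34.6 in D138N, an unadjusted p of 0.00937 in edgeR. Over all genes, 11 had an unadjusted p under 0.001 on the positive side and 36 on the negative side.

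Several neuronal genes leaned the same way, with D138N 5xFAD 2 apart. Slc17a6, the vesicular glutamate transporter of subiculum and thalamus, was at 22.6, 39.3 and 26.3 CPM in WT, 5.25, 8.14 and 9.54 in 5xFAD, 19.7, 17.5 and 25.2 in D138N, and 27.5, 8.62 and 21.3 in D138N 5xFAD. D138N 5xFAD 2 lay within the 5xFAD range and the other 2 libraries within that of D138N or above it. The interaction was 1.80 ± 0.48 (edgeR, adjusted p = 0.443), and without D138N 5xFAD 2 it was 2.12 (edgeR, adjusted p = 0.0325). Reln, which encodes a secreted protein of interneurons and Cajal-Retzius cells, had 0.93 ± 0.40 (edgeR, adjusted p = 0.618). Its D138N 5xFAD libraries were at 68.2, 30.9 and 67.7 CPM beside 27.9 to 42.8 in 5xFAD, so D138N 5xFAD 2 again lay within the 5xFAD range.

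In the neocortex and subiculum list 4 of 14 genes had an unadjusted p under 0.05, all higher (background 4.19%), with a median of 0.42. The number was 8 without D138N 5xFAD 2, and 2 without D138N 2 or without D138N 5xFAD 3. Inhibitory interneuron genes had 3 of 15 higher (background 4.19%), Reln (0.93), Gad2 (0.75) and Gad1 (0.45), while 6 of 15 estimates lay below 0. Synaptic genes had 1 of 35 higher, a share below that background, the GABA receptor subunit Gabrb2 (0.77). 5xFAD lowered 20 of 35 synaptic genes on the WT background and 4 of 35 on the D138N background (backgrounds 8.01% and 0.304%), and the median interaction was 0.10. Differences in how much subiculum or cortex a dissection held were not tested.

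Myelin genes, which wrap axons in oligodendrocyte membrane through their products, had interaction estimates mostly above 0. 5xFAD raised 14 of 20 on the D138N background (background 3.2%) and 7 on the WT background (background 8.55%), with median effects of 0.66 and 0.21. The interaction was above 0 for 19 of 20, its median was 0.35, and 8 had an unadjusted p under 0.05 on the higher side (background 4.19%). Cnp, a myelin-associated phosphodiesterase, was at 289, 302 and 257 CPM in WT, 296, 348 and 344 in 5xFAD, 286, 241 and 242 in D138N, and 378, 422 and 372 in D138N 5xFAD. The D138N 5xFAD libraries were the highest and those of D138N 2 and 3 the lowest, and the interaction was 0.39 ± 0.13 (edgeR, adjusted p = 0.61).

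Gjc3, a connexin of oligodendrocytes, had 0.61, Ermn 0.58 and Ugt8a, which makes the myelin lipid galactosylceramide, 0.59. Mbp, the best expressed member, had 0.19 (-0.22 to 0.59). The median D138N effect on the list was -0.20 without 5xFAD and 0.17 within 5xFAD, so both pairs contribute to the interaction. The number of myelin genes at an unadjusted p under 0.05 was 3 without 5xFAD 1, without D138N 2 or without D138N 3, 4 without WT 1, WT 2 or D138N 5xFAD 2, and 5 without D138N 5xFAD 1. It was 12 without D138N 1, 10 without WT 3 and 9 without 5xFAD 3. Glul and Slc1a2, astrocytic genes of glutamate clearance, had 0.33 and 0.63. Of the 15 astrocyte markers that include them, 6 estimates lay below 0 and the median was 0.09. On the higher side 3 of 15 had an unadjusted p under 0.05 (background 4.19%).

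**Figure D4:**
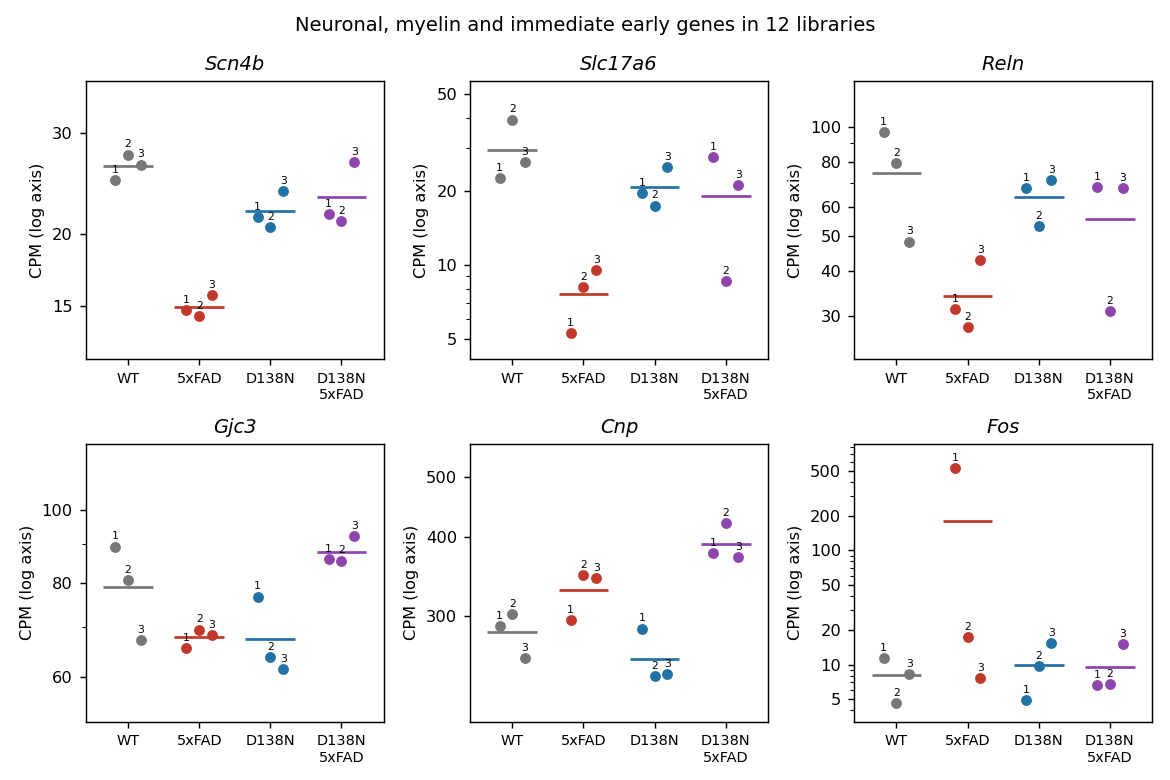
CPM on a log axis (y) by genotype (x) for 3 neuronal genes, 2 myelin genes and Fos. Points are single libraries numbered by replicate and bars are group means. For Slc17a6 and Reln, D138N 5xFAD 2 (8.62 and 30.9 CPM) lies apart from the other 2 libraries of its genotype, and for Fos 5xFAD 1 (521 CPM) lies above all others.

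Immediate early genes show how 1 library can set an interaction. Fos, a transcription factor induced within minutes of neuronal activity, was at 521 CPM in 5xFAD 1 and at 17.5 or less in the other 11 libraries. Junb was at 404 CPM and Arc at 769 CPM in that library, each above every other. Of 21 genes in the list, 9 had an unadjusted p under 0.05 on the lower side (background 3.7%) and the median was -1.81. Without 5xFAD 1 the count was 2 and the median -0.11. The count was 16 without 5xFAD 2 or 5xFAD 3, and 5 without WT 2, D138N 3 or D138N 5xFAD 1. The interferon lists did not move this way: without 5xFAD 1 the count was 59 of 69 and the median -1.51.

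**Figure D5:**
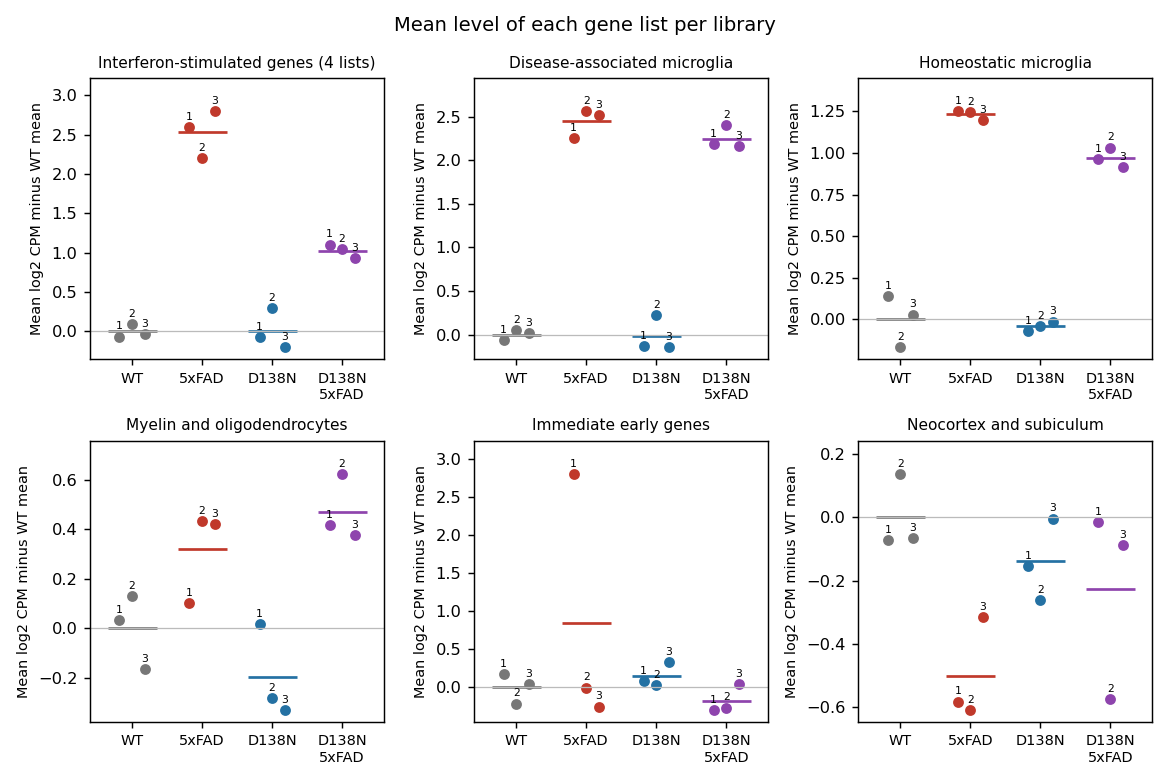
Mean of log2 CPM over the members of 6 lists, minus the mean of the WT libraries (y), by genotype (x). Points are single libraries numbered by replicate and bars are group means. For interferon-stimulated genes the D138N 5xFAD libraries lie between 0.94 and 1.10 and the 5xFAD libraries between 2.21 and 2.80, and for immediate early genes 5xFAD 1 (2.81) stands alone.

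Thy1, whose regulatory sequence drives the transgenes, was at 542, 559 and 609 CPM in WT, 2740, 2295 and 2389 in 5xFAD, 550, 540 and 602 in D138N, and 1723, 2251 and 1612 in D138N 5xFAD. D138N 5xFAD 1 and 3 lay furthest below the 5xFAD libraries. Its interaction was -0.39 ± 0.16 (unadjusted p 0.0253, adjusted p = 0.617 in edgeR). App, which counts the mouse gene and possibly transgene reads, had 0.00 (-0.19 to 0.20). When Thy1 entered the fit as a covariate, 0 genes were called in edgeR, 53 of 69 interferon-stimulated genes had an unadjusted p under 0.05 on the lower side, and their median was -1.44. Irgm1 then had -1.35 (edgeR, adjusted p = 0.961). In that fit 2 of 20 myelin genes and 1 of 14 neocortex and subiculum genes had an unadjusted p under 0.05 on the higher side, and 0 of 21 immediate early genes on the lower side.

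Lymphocyte markers were scored in the same libraries, and none of 10 was called lower with D138N within 5xFAD (background 0.529%). The mean score of the 10 tested T and NK cell genes was 2.01, 2.07 and 1.27 in 5xFAD and 0.828, 0.962 and 0.996 in D138N 5xFAD. For 5 of 10 every 5xFAD library lay above every D138N 5xFAD library (background 7.73%). The median interaction was -0.63, and 7 of 10 estimates lay below 0. An unadjusted p under 0.05 was found for 1 of 10, Lck (-0.84, background 3.7% lower). Levels were low: Cd3e was at 0.249 to 0.766 CPM in 5xFAD and 0.235 to 0.417 in D138N 5xFAD, and Cd3d, Cd8b1, Cd2, Gzma, Gzmb and Ncr1 had too few counts to be tested. The part of these cells in the interferon result was not tested.

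The promoter core was counted over all genes with a window. A promoter window was at hand for 13514 of the 21366 tested symbols, and 3.75% of those genes had that core on either strand in at least 1 window (250 bases before the start and 50 after). The share was 59.2% of 49 interferon-stimulated genes with a window, 29.4% of 17 class I genes and 8.33% of 24 disease-associated microglia genes. Among genes with an unadjusted p under 0.05 it was 13.1% of 482 lower ones and 2.26% of 576 higher ones, and among those under 0.001 it was 17 of 26 lower ones and 0 of 5 higher ones. Genes with several windows have more chances of a match. With 1 window only, the shares were 3.1% of all genes and 58.5% of the interferon-stimulated genes. Outside the interferon and class I lists, 6.81% of 470 genes with the motif and 2.98% of 12960 genes without it were lower at an unadjusted p under 0.05. Those lists do not hold every interferon-inducible gene, and Cxcl10 is an example outside them. Within the 49 interferon-stimulated genes those with a match had a median interaction of -1.57 and those without it -1.29, and 25 of 29 and 18 of 20 had an unadjusted p under 0.05. A match is a description of letters and not a binding site.

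In the Zbp1 cohort (WT, 5xFAD, Zbp1-/- and Zbp1-/- with 5xFAD, 9 months, 3 libraries each) the same interaction was computed for loss of the sensor upstream of RIPK1. It called 0 of 21274 genes (0%) in edgeR and in DESeq2, with 556 (2.61%) at an unadjusted p under 0.05. For the 69 interferon-stimulated genes its median was -0.75, with 19 lower at an unadjusted p under 0.05 (background 1.52%). Their median 5xFAD effects in the Zbp1 cohort were 1.73 on the WT background and 0.83 on the Zbp1-/- background. In the Ripk1 cohort they were 2.74 on the WT background and 0.96 on the D138N background. The size of 5xFAD against WT thus also differed between cohorts, which was not tested. Irgm1 had -1.12 ± 0.37 and Isg15 -1.29 ± 0.53 in the Zbp1 cohort. The difference between the 2 interactions, fitted over 24 libraries, called 0 of 22565 genes (0%) in edgeR and in DESeq2, with 914 (4.05%) at an unadjusted p under 0.05. For Irgm1 it was -0.39 ± 0.44, for Isg15 -1.45 ± 0.65, for Oasl2 -1.59 ± 0.54 and for Gbp5 0.53 ± 0.55. Over the 69 genes its median was -0.62, and 13 were lower at an unadjusted p under 0.05 (background 1.63%). No gene was therefore shown to differ between the mutations, and these data do not show that the mutations act alike. Each mutation was in 1 cohort only, so a difference between mutations cannot be told apart from one between cohorts. In the Zbp1 cohort WT 1 had 8362348 counts. Its 5xFAD 2 lay furthest from its replicates (chi-square over its degrees of freedom 75.91 and 87.54). For myelin the median interaction in the Zbp1 cohort was -0.11, and the difference had a median of 0.48. For disease-associated microglia the median there was -0.43, with 4 of 29 lower at an unadjusted p under 0.05 (background 1.52%). The difference had a median of 0.23 for that list.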

How the data were processed

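For each hippocampal library the authors deposited whole-number read counts per Ensembl gene ID, in 1 table per cohort. The tools listed, per the submitters' processing notes, are edgeR 4.0.16, HISAT2 and DESeq2 1.42.1. GRCm39 (mm39) and GRCm38 (mm10) both appear there without a role. How strand and shared reads were handled in counting was not stated. Overlapping genes and near copies may therefore share reads. Of 55487 IDs, 55141 matched a symbol in the table of gene names.

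Everything else was computed here with R 4.3.3, edgeR 4.0.16, limma 3.58.1, DESeq2 1.42.0, Python 3.11.15 and matplotlib 3.10.9. The 12 libraries of the Ripk1 cohort were fitted together (TMM, filterByExpr by genotype, glmQLFit with 1 mean per genotype, glmQLFTest), which kept 21376 genes, and p-values were adjusted over all of them. The fit was tested on simulated data. CPM are after TMM, and list scores use log2 CPM with a prior count of 2. SE is the absolute log2 estimate divided by the square root of F. Each pair of replicates differed beyond counting noise (chi-square over its degrees of freedom from 9.488 to 37.6), so all were counted separately. 0 counts lay on mitochondrially encoded genes.

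The comparison, the 36 gene lists (600 genes), the named genes and the other settings were chosen with earlier results of these data known, so no list is independent evidence of its direction. Named were the called genes and the next 5 by p in each direction, without predicted genes, and from each list up to 4 members with the smallest interaction p and the best expressed one, with Ripk1, Ripk3, Mlkl, Zbp1, Thy1, App, Fos and Ttr. Some genes under this rule are not reported here. Further names are examples of a list, picked after their values were seen. Promoter windows are from RefSeq on GRCm38.p6. Alternatives were other scalings, filters, count tools, a replicate block, Thy1 as covariate, each library left out and, added after the data were seen, 5xFAD 1 and D138N 5xFAD 2 left out together. RNA immunoprecipitation libraries and the authors' own comparison tables were not used.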

Additional observations from a re-analysis of the deposited data

Results flagged for a closer look

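The 5xFAD effect on Irgm1 differed between backgrounds by a test of the difference itself: the interaction was -1.52 on the log2 scale (edgeR, adjusted p = 0.0385). Each of the 3 D138N 5xFAD libraries lay below each of the 3 5xFAD libraries, which held for 7.73% of all genes. Over the alternatives the adjusted p ran from 1.49e-09 (DESeq2) to 0.961 (Thy1 as covariate), and the estimate from -1.61 to -1.35.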

How the results depend on the processing

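The number of genes called for the interaction depended on the tool and on single libraries, while the median of the 69 interferon-stimulated genes stayed below 0 wherever it was computed. Against 1 gene (1 lower, 0 higher), the number was 83 (62 lower, 21 higher) with DESeq2, 18 (17 lower, 1 higher) with no filter on low counts, 6 (all lower) with the legacy quasi-likelihood fit, 2 (both lower) with the robust fit and 3 (2 lower, 1 higher) without both 5xFAD 1 and D138N 5xFAD 2. It was 0 with a mean of at least 1 CPM, with limma-voom and with Thy1 as covariate. Leaving out 1 library gave 0 to 29, with 0 to 14 lower and 0 to 15 higher. The highest was without D138N 5xFAD 2, and it was 12 without 5xFAD 2. Relative to 59 of 69, the interferon-stimulated genes lower at an unadjusted p under 0.05 numbered 53 to 62 in the other settings and 46 (without D138N 2) to 60 with 1 library left out, and their median ran from -1.67 to -1.29.

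A replicate block called 0 genes, and Irgm1 had an adjusted p of 0.0945 there. Whether replicate numbers pair the libraries was not settled. Same-numbered deviations correlated at -0.2183 to 0.2435, over 0.1 in 5 of 18 pairs and in 6 of 36 differently numbered ones. Among WT, 5xFAD and D138N every same-numbered pair lay above 0, from 0.013 (WT 1 with D138N 1) to 0.2435 (WT 3 with D138N 3). Same-numbered pairs with D138N 5xFAD 2 or D138N 5xFAD 3 all lay below 0, from -0.2183 to -0.096.

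The 5xFAD effect on the WT background called 1712 to 4240 genes with 1 library left out, and that on the D138N background 433 to 763 (1211 with DESeq2). D138N without 5xFAD called 0 to 1, and within 5xFAD 66 to 895 (276 with DESeq2). The promoter core followed by C was in 1.01% of all genes, 44.9% of interferon-stimulated genes, 6.85% of genes lower and 0.521% of genes higher at an unadjusted p under 0.05.

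Irgm1 lost its call with a mean of at least 1 CPM (0.0576) and with limma-voom (0.0522). Signs changed for 10 uncalled genes named here or checked alongside: Znfx1 (-0.21 to 0.016 with 1 library left out), Reln (-0.036), Cst3 (0.030), Fth1 (0.020) and Trem2 (0.052) with Thy1 as covariate, Ttr with limma-voom (0.57) or the replicate block (1.22), and Fosb (-5.38 to 0.17 with 1 library left out). With 1 library left out Ripk1 ran from -0.10 to 0.10 and App from -0.037 to 0.038, and App was at -0.000846 with a mean of at least 1 CPM. Without both 5xFAD 1 and D138N 5xFAD 2, Mbp was at -0.10, Ripk1 at 0.031, App at -0.056 and Fosb at 0.21. The cause of these changes was not tested. With 3 libraries a genotype and 16624325 counts in the shallowest, genes of few counts have intervals several log2 units wide.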

Other observations

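Genes of oxidative phosphorylation and of cholesterol synthesis had interaction estimates that lay nearly all on 1 side of 0 while small. Of 28 nuclear genes of oxidative phosphorylation 25 were below 0, with a median of -0.16, and 2 had an unadjusted p under 0.05 (background 3.7%). 5xFAD raised 7 of them on the WT background (background 8.55%) and 0 on the D138N background (background 3.2%), with median effects of 0.22 and 0.02. Of 22 genes of cholesterol synthesis 21 were below 0, with a median of -0.18 and 4 at that level. 5xFAD raised 11 on the WT background and 2 on the D138N background, beside the same shares over all genes.

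Ly6a, which encodes the surface protein SCA-1 of brain endothelium and is interferon-inducible, was at 11.3, 15.8 and 12.9 CPM in WT, 25, 24.1 and 22 in 5xFAD, 12.8, 12.3 and 12.4 in D138N, and 14.0, 15.2 and 10.1 in D138N 5xFAD. The 5xFAD libraries were high and the other 3 groups overlapped. Its interaction was -0.77 ± 0.22 (edgeR, adjusted p = 0.476), while the median of the 20 endothelial and mural genes was -0.08. Choroid plexus genes differed between libraries more than between genotypes, with a mean score from -3.50 in 5xFAD 3 to 2.31 in D138N 2. For the interaction 0 of 10 had an unadjusted p under 0.05 (background 7.88%). The median SE of these genes was 1.52, so that count says little about them.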
